A study of Mus musculus with 2 samples.

Results

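Amino acid carriers of the families SLC1, SLC3, SLC6, SLC7, SLC36, SLC38 and SLC43 were described in AML12 cells, a mouse hepatocyte line, that carried an H19 lentivirus or a control lentivirus. Members were taken by name, as every row whose gene symbol begins with Slc, the number of 1 of these 7 families, the letter a and a number. The rule found 48 of the 21145 rows of the table of both libraries, and 24 of them had a mean of at least 1 FPKM (fragments for each kilobase of a transcript and each 1000000 mapped fragments), here called measured. Just inside that limit lay Slc1a2 with a mean of 1.27 FPKM, and just outside it Slc36a4 with 0.961 FPKM. A further 17 protein-coding genes whose GENCODE symbols match the rule, among them Slc7a2, Slc38a5 and Slc7a9, had no row in that table. They could therefore not be analysed here. Both cell lines were CD1/MT42 in strain, were at passages 14 to 16, had been infected with lentivirus and had been selected and kept in puromycin, and they differed in whether the virus expressed H19, a long noncoding RNA. The labels do not say whether a line is 1 clone or a pool. There was 1 library per line and 2 in all, so no value has a replicate error, no test was made, and each difference describes these 2 libraries and not the conditions.

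Amino acids cross membranes through carriers that differ in substrate and in what drives them. Sodium-coupled carriers concentrate small neutral amino acids such as glutamine in the cell, and exchangers spend that gradient to bring in essential amino acids or cystine. Many exchangers of the SLC7 family are light chains that reach the surface only when bound to a heavy chain of the SLC3 family. When amino acids run short, the transcription factor ATF4 raises several carriers together with enzymes of amino acid synthesis. Liver cells use such carriers to take up glutamine, alanine and arginine for urea and glucose synthesis and cystine for glutathione.

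H19 itself was at 4.72 FPKM in the library of the H19 line, and the control library listed it at 0. No read totals were at hand. The labelled cell type was checked against its markers: of the 10 hepatocyte markers looked for, 9 had a row and 3 were measured, Trf, Hnf4a and Serpina1a. Albumin, Alb, stood at 0.990 and 0.178 FPKM, control first as in every pair of values here, and Ttr at 0.785 and 0.290 FPKM, so both were near 0. Transferrin, Trf, also secreted by hepatocytes, stood at 182 and 125 FPKM and Hnf4a, a transcription factor of hepatocytes, at 74.4 and 44.4 FPKM. These made up nearly all of the list's sum of 260 and 170 FPKM. Serpina1a stood at 2.12 and 0.192 FPKM and counted as measured only through its value in the control library. Cyp2e1 was listed at 0 in the H19 library and Fgb in the control library. Bile duct markers summed to 818 and 463 FPKM, with 4 of 5 measured, mostly Krt19 at 382 and 219 FPKM and Spp1 at 389 and 222 FPKM. Krt7 was also lower in the H19 library, at 39.7 and 10.6 FPKM, whereas Sox9 was higher there, at 8.02 and 11.1 FPKM. Epcam, also a bile duct marker, was near 0, at 0.0186 and 0.0385 FPKM. Markers of stellate cells (1 of 6 measured, sum 3.81 and 1.13 FPKM), macrophages (2 of 5, sum 4.91 and 1.61 FPKM) and endothelium (0 of 5, sum 0.469 and 0.314 FPKM) were low. All these sums were lower in the H19 library, and their part in the values below was not tested. Fewer cells of a type and less RNA per cell cannot be told apart in such bulk samples.

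The carriers were led by a small set at high level. Slc3a2, the CD98 heavy chain, stood at 342 and 362 FPKM and ranked 193rd and 183rd among all 11674 measured genes. Slc7a5, its large neutral amino acid light chain, followed at 118 and 171 FPKM. Slc38a2, a sodium-coupled importer of small neutral amino acids, stood at 111 and 116 FPKM, Slc6a6, the taurine carrier, at 112 and 70.6 FPKM, and Slc1a5, a glutamine exchanger, at 59.6 and 97.9 FPKM. These 5 were the highest members in both libraries and held 70.8% of the members' summed FPKM in each. Slc6a6 was the 3rd highest member in the control library and the 5th in the H19 library, whereas Slc1a5 was the 5th and the 4th. Among the measured members 3 had a mean of 100 FPKM or more, 14 a mean from 10 to 100 and 7 a mean from 1 to 10. Their median mean level was 20.2 FPKM, and that of all measured genes 13.1 FPKM.

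**Figure D1:**
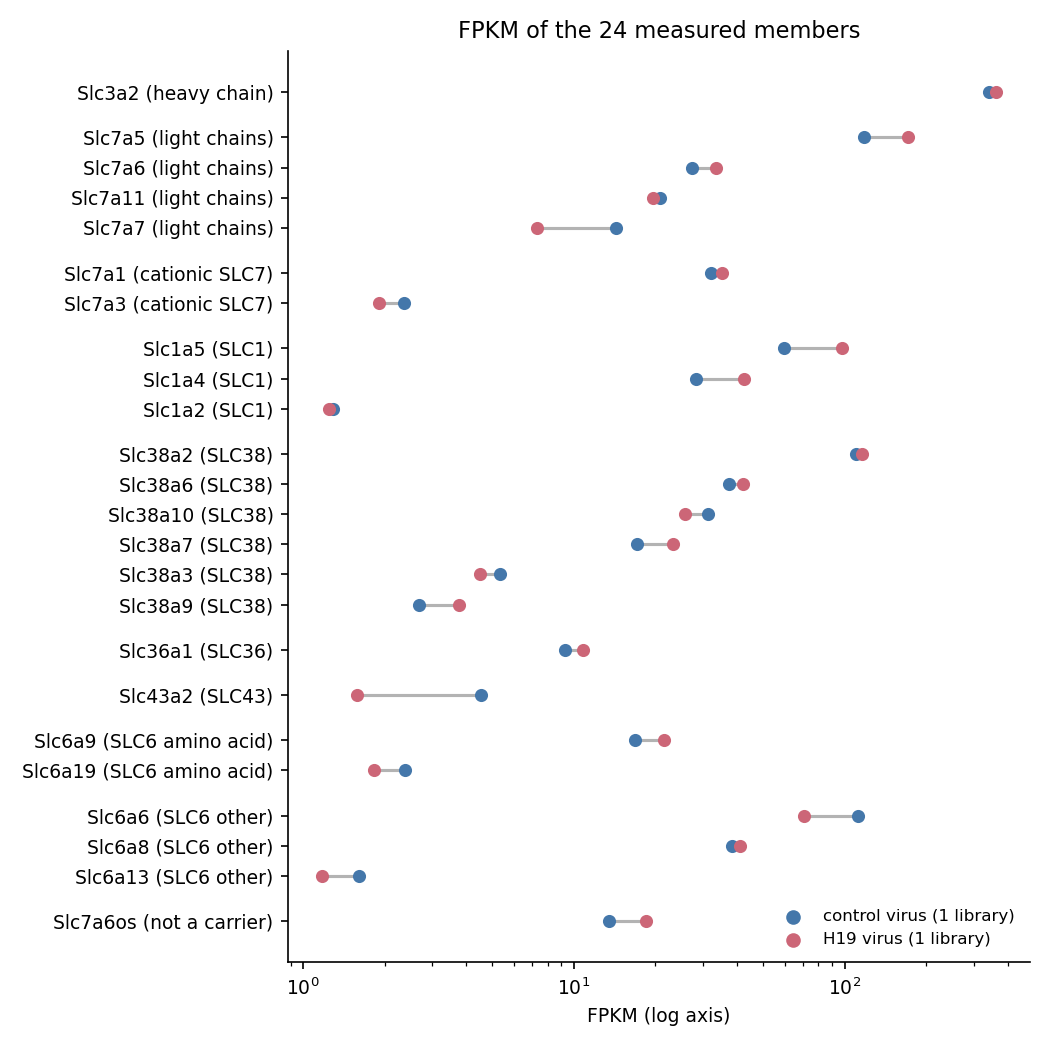
FPKM (log axis) of each of the 24 measured members in the control library (blue) and the H19 library (red), 1 library each with no error bar, grouped by carrier class. Slc3a2 is the highest at 342 and 362 FPKM, and the longest line joins the 4.54 and 1.59 FPKM of Slc43a2.

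The question the design puts to these genes is whether their transcripts differed between H19-expressing and control cells. Most did so little. Differences are those of log2(FPKM + 1), with the control subtracted from the H19 library, a scale that understates the difference of low genes. The measured members had a median of 0.09, and all measured genes a median of 0.08. Of the members 14 were higher and 10 lower in the H19 library, against 58.9% of all measured genes higher. By a rule of at least 2-fold, 0 members were higher, where 1.14% of all measured genes were, and 1 was lower, where 1.57% were. By a rule of at least 1.5-fold, 1 member was higher, against 8.99% of all genes, and 3 were lower, or 12.5% of the members, against 6.21% of all genes. With 24 members each gene is about 4.17% of them, so these shares are coarse. The middle members spanned differences from -0.22 (25th percentile) to 0.35 (75th percentile), and all genes from -0.18 to 0.33.

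**Figure D2:**
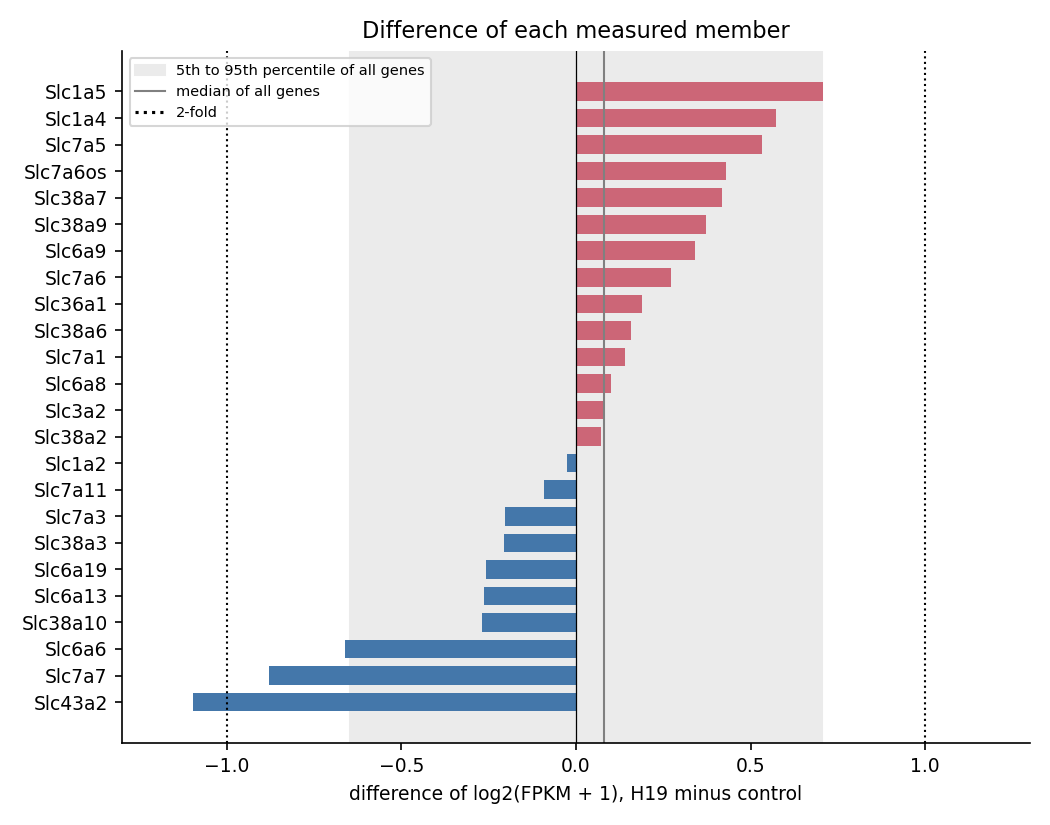
Difference of log2(FPKM + 1), H19 minus control, for each measured member (red higher, blue lower; 1 library per group). The grey band spans the 5th to 95th percentile of all measured genes (-0.65 to 0.70), the grey line is their median of 0.08 and dotted lines mark 2-fold; only Slc43a2 lies beyond 2-fold.

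The member with the greatest difference was Slc43a2 (ENSMUSG00000038178, plus strand of chromosome 11, 75531694 to 75577575 on GRCm38). It encodes a carrier that lets branched-chain amino acids, methionine and phenylalanine pass down their gradients. It stood at 4.54 FPKM in the control library and 1.59 FPKM in the H19 library, a 2.86-fold lower level and a log2 difference of -1.10. Of all measured genes 1.11% had a lower difference. In the authors' deposited table of differences Slc43a2 has a log2 ratio of -1.51 and a q-value of 1.01e-05. The deposited list covers 3.75% of all measured genes and 1 of the 24 measured members. A q-value from 1 library per group compares libraries, not conditions. Its exons share 922 bases with Gm45606, an antisense gene on the opposite strand, and no source used here gives the use of strand, so its value is uncertain by what that gene contributed. Slc43a1, which carries the same kind of substrates in liver, was not measured, at 0.268 and 0.116 FPKM, nor was Slc43a3, a nucleobase carrier, at 0.0550 FPKM in the H19 library and listed at 0 in the control.

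Partners at the cell surface went different ways. The heavy chain Slc3a2 (ENSMUSG00000010095, minus strand of chromosome 19, 8706882 to 8723369) had a log2 difference of 0.08, equal to the median of all genes. Slc3a1, the other heavy chain, was near 0 at 0.287 and 0.196 FPKM. Of the light chains, Slc7a5 (ENSMUSG00000040010, minus strand of chromosome 8, 121881150 to 121907694) was 1.45-fold higher, with a log2 difference of 0.53. The deposited locus of Slc7a5 spans 4435.4 kb, whereas its GENCODE span is 26.5 kb, so the authors' locus reaches far beyond the annotated gene. Whether its FPKM includes reads of other genes was not tested, which leaves its ratio and its shares of sums given here uncertain. Slc7a6, which exchanges cationic for neutral amino acids, stood at 27.4 and 33.4 FPKM.

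Slc7a7 (ENSMUSG00000000958, minus strand of chromosome 14, 54369442 to 54417780), a light chain of the same transport type as Slc7a6 and the gene mutated in human lysinuric protein intolerance, stood at 14.3 and 7.32 FPKM. This was 1.95-fold lower in the H19 library, with a log2 difference of -0.88, and 2.42% of all measured genes had a lower one. Slc7a6 and Slc7a7 thus lay on opposite sides of 0. Slc7a7 shares 232 exonic bases with Oxa1l on the opposite strand, which stood at 21.04 and 17.0 FPKM. Slc7a11 (ENSMUSG00000027737), the light chain that exchanges cystine for glutamate, stood at 20.9 and 19.6 FPKM, a log2 difference of -0.09. Slc7a8, a further neutral light chain, was not measured, at 0.214 and 0.0802 FPKM. Summed over the 4 measured light chains, FPKM went from 180 (control) to 231 (H19), and Slc7a5 made up 65.3% and 73.9% of that sum. The ratio of Slc3a2 to that sum was 1.90 and 1.57.

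Carriers of the SLC1 family gave the greatest positive differences. Slc1a5 (ENSMUSG00000001918, plus strand of chromosome 7, 16781340 to 16798274), which exchanges glutamine for other neutral amino acids, stood at 59.6 and 97.9 FPKM. It was 1.64-fold higher in the H19 library, a log2 difference of 0.71 that 95.04% of all measured genes lay below, and it was the only member past the 1.5-fold rule on that side. Slc1a4 (ENSMUSG00000020142, minus strand of chromosome 11, 20302180 to 20332713), which exchanges alanine, serine and cysteine, stood at 28.2 and 42.4 FPKM. Its ratio was 1.505 and its log2 difference 0.57, just under the 1.5-fold rule on the scale used. The glutamate carrier Slc1a2, known from astrocytes and from hepatocytes around the central vein, stood at 1.29 and 1.248 FPKM. Summed over these 3, FPKM was 89.0 and 142, a ratio of 1.59 and the highest of any class. The glutamate carriers Slc1a1, Slc1a3 and Slc1a7 were not measured, with Slc1a1 at 0.0474 and 0.181 FPKM.

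Sodium-coupled carriers of the SLC38 family lay near the level of all genes as a class, with summed FPKM of 204 and 215. Slc38a2, which amino acid shortage is known to induce, had a log2 difference of 0.07, and this sign turned to -0.01 once the median of all genes was set to 0 or the upper quartiles were made equal. Within the class, differences went both ways and stayed under 1.5-fold. Slc38a7, a lysosomal exporter of glutamine and asparagine, stood at 17.1 and 23.2 FPKM (log2 difference 0.42), and Slc38a9, the lysosomal arginine sensor of mTORC1, at 2.69 and 3.78 FPKM (0.37). Slc38a6, whose substrates are less well defined, stood at 37.6 and 42.0 FPKM. Slc38a10 was lower, at 31.2 and 25.7 FPKM (-0.27), as was Slc38a3, a glutamine carrier of hepatocytes, at 5.34 and 4.50 FPKM (-0.21). The lysosomal carrier Slc36a1, which moves glycine, alanine and proline with protons, stood at 9.31 and 10.8 FPKM. On chromosome 15, Slc38a2 lies between Slc38a1 (0.346 and 0.292 FPKM) and Slc38a4, a carrier of liver (0.0723 FPKM and listed at 0), neither of which was measured.

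Cationic and glycine carriers differed little. Slc7a1, the widely expressed arginine and lysine carrier, stood at 32.0 and 35.4 FPKM (0.14). Slc7a3, a cationic carrier better known from brain, stood at 2.35 and 1.91 FPKM (-0.20). Slc6a9, a glycine carrier, stood at 16.8 and 21.5 FPKM (0.34), and its exons share 1429 bases with Ccdc24 on the opposite strand, which stood at 3.09 and 4.67 FPKM. Slc6a19, the neutral amino acid carrier of gut and kidney, stood at 2.38 and 1.82 FPKM (-0.26).

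Members of the SLC6 family that carry taurine, creatine or GABA in place of protein amino acids were dominated by Slc6a6 (ENSMUSG00000030096, plus strand of chromosome 6, 91684053 to 91759066). This taurine carrier, which also supplies the taurine that liver joins to bile acids, stood at 112 and 70.6 FPKM, 1.59-fold lower in the H19 library (log2 difference -0.66), and 4.76% of all measured genes had a lower difference. Slc6a6 made up most of the class sum, which was 152 and 113 FPKM, a ratio of 0.742. Its exons share 117 bases with Gm44981 on the opposite strand, and such overlaps also touch Slc38a10 (367 bases), Slc1a2 (189 bases) and Slc38a9 (182 bases). The creatine carrier Slc6a8 stood at 38.3 and 41.1 FPKM (0.10) and Slc6a13, a GABA and taurine carrier of liver, at 1.61 and 1.17 FPKM (-0.26). Slc7a6os matched the name rule but is a neighbour of Slc7a6 on the opposite strand and encodes no carrier. It stood at 13.5 and 18.5 FPKM (0.43).

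**Figure D3:**
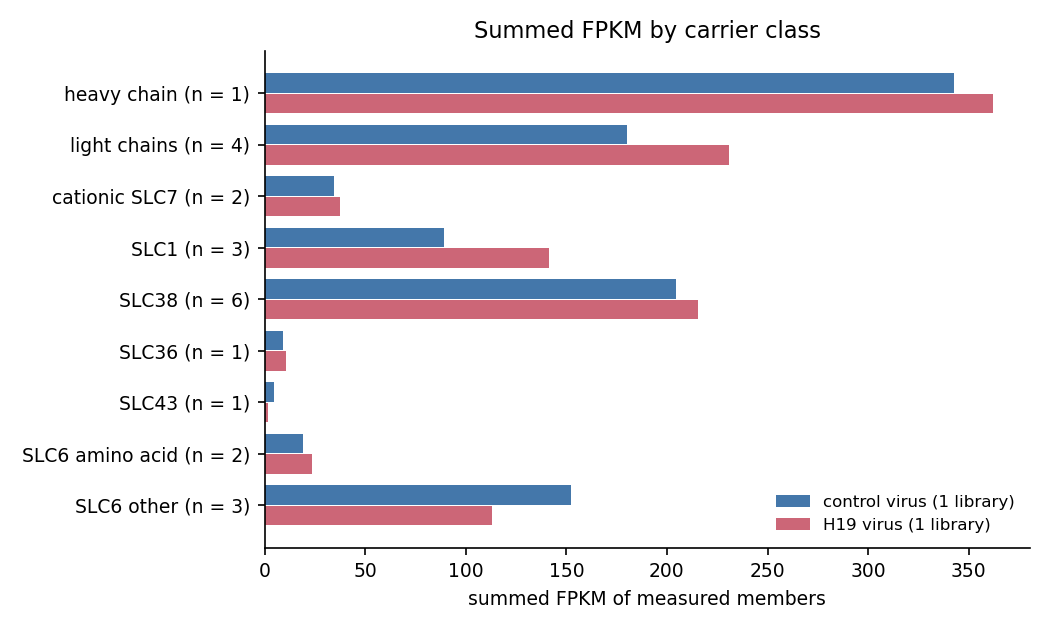
Summed FPKM of the measured members of each carrier class in the control library (blue) and the H19 library (red), 1 library each with no error bar; n is the number of members summed and Slc7a6os is left out. The SLC1 class goes from 89.0 to 142 FPKM and the SLC6 class of other substrates from 152 to 113 FPKM.

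Summed over all 24 measured members, FPKM came to 1049 (control) and 1155 (H19), a ratio of 1.10. Of the 17 members with a mean of at least 10 FPKM 13 were higher and 4 lower, with a median of 0.16, beside 62.1% higher and a median of 0.10 for all genes at that level. Of the 7 members below that level 1 was higher, Slc38a9, and 6 were lower, with a median of -0.21, beside 54.3% higher and a median of 0.04 for all genes there. Genes of low level rest on fewer fragments. If the lowest common step of low values is 1 fragment, the libraries held about 24200000 and 24500000 fragments, and Slc43a2 would rest on at most about 1105 and 391 of them, Slc6a13 on 113 and 84, and Slc1a2 on 410 and 402. These are upper estimates, since they use the length of all annotated exons together.

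**Figure D4:**
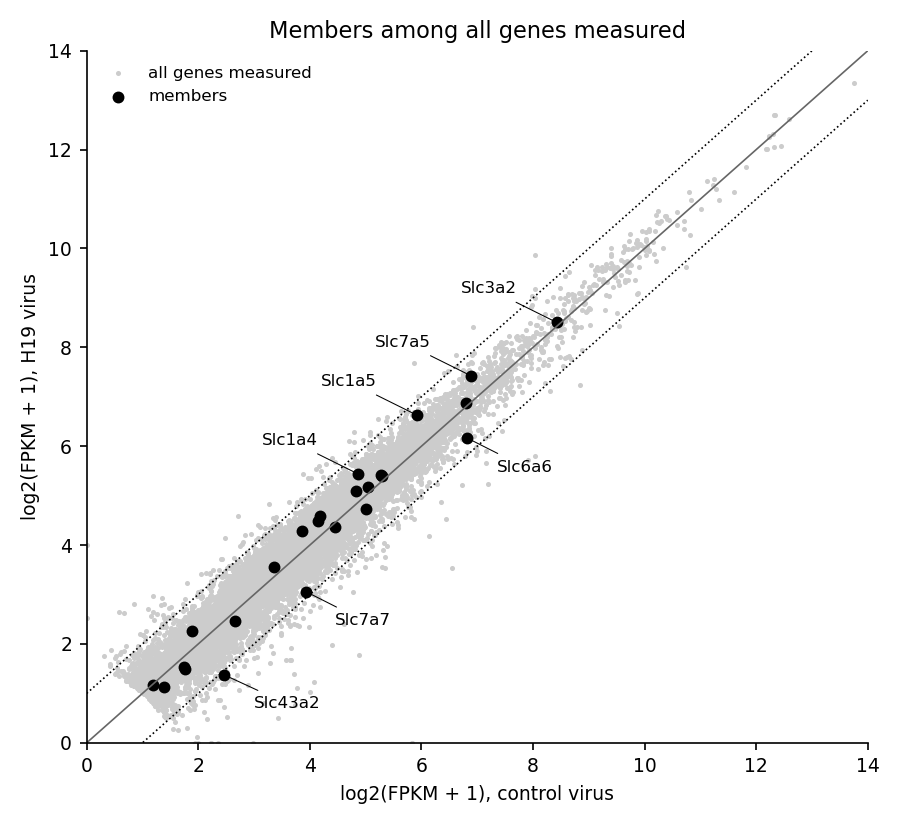
Level of all 11674 measured genes (grey) and of the 24 measured members (black) as log2(FPKM + 1) in the control library (horizontal) and the H19 library (vertical), 1 library each. The solid line marks equal levels and dotted lines 2-fold; Slc43a2 lies below the lower dotted line.

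The other 24 rows were not measured. Slc36a4 and Slc6a12 had means of 0.961 and 0.684 FPKM, and Slc38a1, Slc7a15, Slc6a20a, Slc7a4, Slc3a1, Slc43a1, Slc7a8, Slc1a1 and Slc7a14 means from 0.319 down to 0.103 FPKM. Slc36a3 and the antisense gene Slc36a1os, which is no carrier, lay below these. The remaining 11, among them Slc6a4, Slc6a5, Slc6a14, Slc6a20b, Slc1a3, Slc1a7, Slc38a4 and Slc43a3, were under 0.1 FPKM in both libraries. Slc43a3, Slc6a5 and Slc6a14 were listed at 0 in the control library, and Slc36a3, Slc38a4 and Slc6a4 were among those listed at 0 in the H19 library. Slc7a15 stood at 0.562 and 0.0269 FPKM, and in the authors' deposited table it has a log2 ratio of -4.38 and a q-value of 0.0417. With it, 2 of the 48 rows are in that list, which holds 2.65% of all 21145 rows. By the estimate above Slc7a15 would rest on about 41 and 2 fragments.

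Carriers known as targets of ATF4 were set beside other genes of the amino acid response. All 9 such carriers were measured, 7 higher and 2 lower, with a median of 0.14 and 1 at least 1.5-fold higher, Slc1a5, beside 58.9% of all measured genes higher and 8.99% by 1.5-fold. This median was 0.0608 with the median of all genes set to 0, 0.0660 with equal upper quartiles, 0.0798 as TPM and 0.241 over carriers with a mean of at least 5 FPKM. Besides Slc1a5, Slc1a4 and Slc7a5, the remaining 6 had differences between -0.20 (Slc7a3) and 0.34 (Slc6a9). The 22 regulators and targets that are not carriers were all measured, 18 higher and 4 lower, with a median of 0.59. Of these 11 were at least 1.5-fold higher, 2 of them at least 2-fold, and 0 lower by 1.5-fold. The shares of all measured genes past these rules were 8.99%, 1.14% and 6.21%, in that order. Atf4, which is not among the 4 greatest differences of the list, stood at 303 and 491 FPKM. The 4 lower genes were Eif2ak4 (-0.32), Eif2ak3 (-0.22), Ddit4 (-0.08) and Sesn2 (-0.05). Nupr1, a stress-induced chromatin protein, stood at 57.0 and 205 FPKM and Ddit3, a stress transcription factor, at 36.2 and 93.2 FPKM. Cth, which makes cysteine, stood at 121 and 235 FPKM and Pycr1, an enzyme of proline synthesis, at 42.5 and 80.7 FPKM. The carriers' median lay between that of all genes and that of the non-carrier list, and the difference between the lists was not tested.

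Promoter sequence of members was read from RefSeq on GRCm38.p6, as the 250 bases before and 50 bases after each annotated start, which gave 29 starts for 18 of the 24 measured members. A search on both strands for TGATGNAA, the core of the C/EBP-ATF response element through which ATF4 acts, found it at 4 of these 29 starts, in Slc1a4, Slc7a11 and Slc7a7. Overlapping windows of Slc7a7 hold the same copy, so that copy was counted at more than 1 start. The motif stands at 3.97% of all 32851 starts in the table and at 2.26% of the 10857 starts of measured genes. Counted by gene, it is present in 3 of the 18 members and in 2 of the 6 ATF4 target carriers that have a start there. It is also present in 6 of 21 such non-carrier genes, namely Asns, Chac1, Nupr1, Pycr1, Trib3 and Vldlr. The shares by gene are 4.51% of all genes with a start there and 2.73% of the measured ones. The antioxidant response core TGACNNNGC, bound by NRF2, stands at 8 of the 29 starts. Its share is 12.4% of all starts and 14.6% of the starts of measured genes. Overlapping windows of Slc7a6 likewise hold the same copy of this core. A match says only that these letters are present. The 3 carriers with the ATF4 motif did not share a direction, with log2 differences of 0.57 for Slc1a4, -0.09 for Slc7a11 and -0.88 for Slc7a7. Each promoter is written 5′ to 3′ on the gene's own strand with matches to either motif in capitals. Slc1a4 (chr11:20332664-20332963, minus strand) and Slc7a11 (chr3:50443564-50443863, minus strand) are shown after their values were seen, because they hold the motif, 1 copy in the former and 2 copies in opposite orientation in the latter. Slc7a7 (chr14:54417895-54418194, minus strand, the outermost of its starts) and Slc43a2 (chr11:75531444-75531743, plus strand) are shown as the carriers with the greatest negative differences.
Slc1a4: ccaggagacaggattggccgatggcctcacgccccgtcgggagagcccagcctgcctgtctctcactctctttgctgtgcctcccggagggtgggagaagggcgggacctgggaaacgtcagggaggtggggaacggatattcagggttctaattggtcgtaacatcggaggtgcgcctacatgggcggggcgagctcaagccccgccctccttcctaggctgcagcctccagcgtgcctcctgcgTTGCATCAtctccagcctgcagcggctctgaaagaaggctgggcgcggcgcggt
Slc7a11: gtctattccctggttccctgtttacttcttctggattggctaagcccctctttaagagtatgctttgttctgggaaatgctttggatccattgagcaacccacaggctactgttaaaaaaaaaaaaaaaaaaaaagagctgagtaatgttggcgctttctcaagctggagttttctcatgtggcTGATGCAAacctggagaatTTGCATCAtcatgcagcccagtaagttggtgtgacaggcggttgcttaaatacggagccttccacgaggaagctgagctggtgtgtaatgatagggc
Slc7a7: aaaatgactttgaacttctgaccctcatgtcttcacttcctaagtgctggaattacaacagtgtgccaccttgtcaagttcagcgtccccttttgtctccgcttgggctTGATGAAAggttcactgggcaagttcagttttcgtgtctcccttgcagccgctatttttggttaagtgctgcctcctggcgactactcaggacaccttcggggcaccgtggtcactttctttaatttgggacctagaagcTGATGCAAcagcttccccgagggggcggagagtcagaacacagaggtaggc
Slc43a2: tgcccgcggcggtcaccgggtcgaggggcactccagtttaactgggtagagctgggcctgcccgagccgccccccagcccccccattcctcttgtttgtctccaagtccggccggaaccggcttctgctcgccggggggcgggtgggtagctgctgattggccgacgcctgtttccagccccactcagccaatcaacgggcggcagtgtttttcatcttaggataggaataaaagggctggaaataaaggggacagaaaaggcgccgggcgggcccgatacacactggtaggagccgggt

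Slc3a2 has a close neighbour that differed far more. Snhg1 (plus strand of chromosome 19, 8723475 to 8726443), a noncoding RNA whose introns hold small nucleolar RNAs, lies head to head with Slc3a2, with 105 bases between the annotated spans. Snhg1 stood at 260 and 930.4 FPKM, a log2 difference of 1.83, whereas Slc3a2 stood at 342 and 362 FPKM, a log2 difference of 0.08. Both annotated starts fall in the RefSeq window of Snhg1 (chr19:8723237-8723536, written on the plus strand), which was chosen after these values were seen. RefSeq also gives Slc3a2 a start inside the gene (chr19:8713848-8714147, minus strand). Neither window holds either motif.
Snhg1 and Slc3a2, shared window: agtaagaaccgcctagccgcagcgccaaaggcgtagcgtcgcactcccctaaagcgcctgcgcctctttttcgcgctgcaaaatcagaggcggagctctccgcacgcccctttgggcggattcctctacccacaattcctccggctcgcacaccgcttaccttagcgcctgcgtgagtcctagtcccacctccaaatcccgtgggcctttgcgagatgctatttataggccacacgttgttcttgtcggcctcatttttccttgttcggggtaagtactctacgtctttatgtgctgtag
Slc3a2, inner start: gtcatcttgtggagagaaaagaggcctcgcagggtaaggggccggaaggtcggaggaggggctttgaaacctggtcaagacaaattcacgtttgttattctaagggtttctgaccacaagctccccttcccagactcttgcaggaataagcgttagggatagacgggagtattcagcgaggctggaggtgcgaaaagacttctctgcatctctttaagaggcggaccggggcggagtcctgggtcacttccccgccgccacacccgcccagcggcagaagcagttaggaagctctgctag

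Other genes of amino acid supply were counted by list. Of 28 measured genes of amino acid sensing upstream of mTORC1, 16 were higher and 12 lower, with a median of 0.02, a sign that turned with the median of all genes set to 0 (-0.06), as TPM (-0.04) and with equal upper quartiles (-0.05). Of all measured genes 58.9% were higher. Past the 1.5-fold rule the list had 0 higher genes, beside 8.99% of all measured genes, and 1 lower gene, beside 6.21%. The greatest difference was that of this lower gene, Sesn3, a sestrin that restrains mTORC1, at 16.2 and 7.98 FPKM (-0.94). Next came Lamtor3, a lysosomal scaffold of mTORC1, at 23.2 and 34.9 FPKM, its partner Lamtor4 at 15.5 and 11.2 FPKM, and Rheb, the GTPase that activates mTORC1, at 92.4 and 134 FPKM.

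Of 14 measured mitochondrial, lysosomal and peptide carriers outside the 7 families, 10 were higher and 4 lower, with a median of 0.14 and 1 past the 1.5-fold rule. Among all measured genes 58.9% were higher and 8.99% at least 1.5-fold higher. The median of the list lay between 0.0596, with the median of all genes set to 0, and 0.0880, as TPM, under the other scalings and with no filter. Past the rule was Slc25a38, a mitochondrial glycine carrier, at 8.77 and 13.7 FPKM. Slc15a4, a lysosomal histidine and peptide carrier, stood at 5.80 and 8.66 FPKM, Slc25a44, a mitochondrial carrier of branched-chain amino acids, at 9.43 and 13.4 FPKM, and the aspartate and glutamate carrier Slc25a12 at 29.5 and 41.0 FPKM.

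Among 18 measured enzymes of glutamine, cystine, arginine and branched-chain amino acid metabolism, 11 were higher and 7 lower, with a median of 0.12, which was 0.0217 with no filter and between 0.0419 and 0.0703 under the other scalings. By the 2-fold rule 1 was higher, against 1.14% of all measured genes, and 2 were lower, against 1.57%. By any amount, 58.9% of all measured genes were higher. Bcat1, which transaminates branched-chain amino acids, stood at 0.341 and 1.95 FPKM. It was the 1 enzyme past 2-fold higher, and it counted as measured only through its value in the H19 library. Gclc, which uses cysteine for glutathione, stood at 125 and 55.6 FPKM and Glul, glutamine synthetase, at 76.8 and 36.8 FPKM. Glud1, glutamate dehydrogenase, stood at 123 and 72.8 FPKM (-0.74). Got1, also of this list, was higher in the H19 library, at 101 and 163 FPKM (0.69). By the 1.5-fold rule 2 enzymes were higher and 3 lower, against 8.99% and 6.21% of all measured genes. The glutamine exchanger Slc1a5 was thus higher in the library in which glutamine synthetase was lower, and the cystine carrier Slc7a11 stood near its control level where Gclc was lower. Cps1, Otc, Arg1, Arg2 and Tat of this list had rows but were not measured. The highest of their values was 0.138 FPKM, for Tat in the control library, whereas Asl stood at 20.8 and 23.0 FPKM.

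Of 8 measured membrane partners and regulators of carriers, 2 were higher and 6 lower, with a median of -0.48 and 2 at least 1.5-fold lower. For all measured genes the shares were 58.9% higher and 6.21% at least 1.5-fold lower. Bsg, a chaperone of monocarboxylate carriers, stood at 358 and 224 FPKM and Sgk1, a kinase that raises several carriers at the surface, at 55.3 and 35.7 FPKM. Cd44, whose variant forms hold the cystine carrier at the surface, stood at 105 and 70.3 FPKM (-0.58), and the kinase Prkcd at 25.1 and 16.9 FPKM (-0.55).

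**Figure D5:**
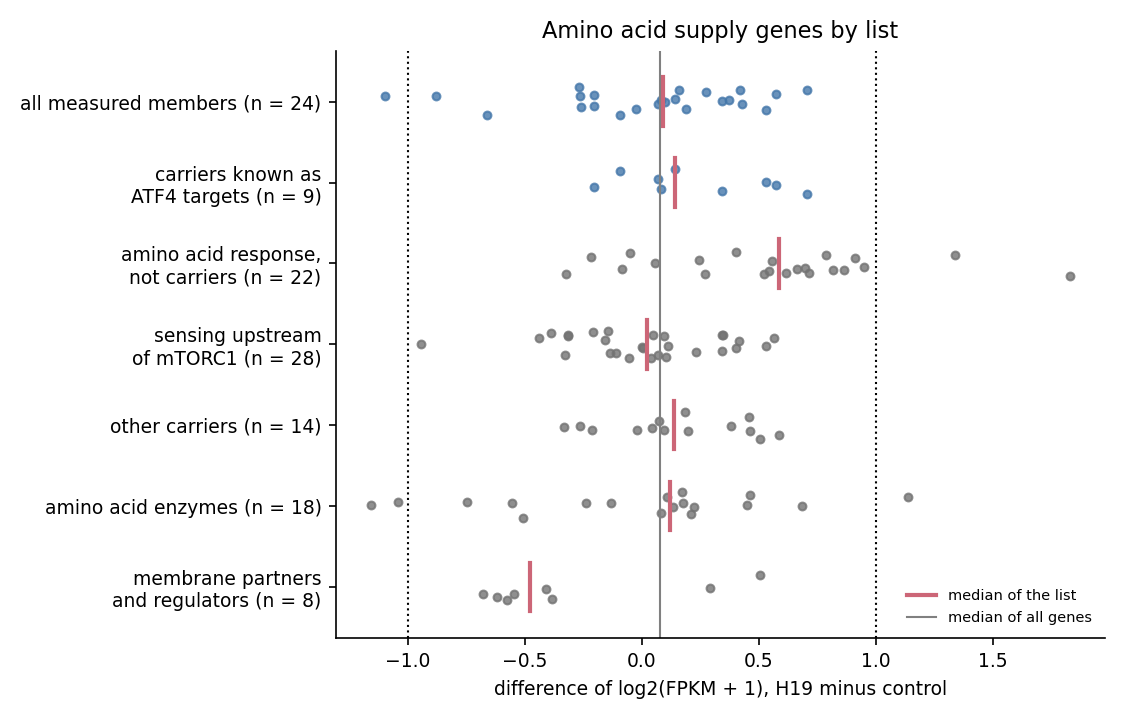
Difference of log2(FPKM + 1), H19 minus control, for each measured gene (points) of the members and of the lists of amino acid supply genes, with list medians in red; the vertical scatter within a list is only for legibility. The non-carrier amino acid response list has a median of 0.59, the ATF4 target carriers 0.14 and all members 0.09, beside 0.08 for all genes (grey line); dotted lines mark 2-fold.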

How the data were processed

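Polyadenylated RNA of 1 control and 1 H19 library was sequenced, per the labels. Per the submitters' processing notes, the tools were CASAVA 1.4 and TopHat2 and the build mm9. No source used here gives the program that computed expression or its use of strand. The authors deposited FPKM per gene in a joint table and in 1 table per library, which agreed exactly for genes above 0, and a filtered table of differences with a log2 ratio, p-value and q-value, per the file headers. Depth and counts are not given. The values of 1 unmeasured member are not reported here.

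All 48 members' deposited loci overlapped their GENCODE M21 span on GRCm38, although the notes name mm9. Slc1a5, for example, had a deposited locus of 16781339 to 16798274, beside 16781340 to 16798274 in GENCODE. Coordinates are therefore from GRCm38. Differences used a pseudocount of 1, a mean FPKM of at least 1 and thresholds of 2-fold and 1.5-fold, with no test. The rule for named genes covered every measured member and, of each pathway list, the 4 greatest differences and any past 2-fold. Atf4, the lower genes of its list and Got1 were named outside this rule. Promoters were to be shown for the 3 members with the greatest differences and Slc3a2, which gave Slc43a2, Slc7a7 and Slc3a2, as Slc1a5 had none in the table. Those of Slc1a4, Slc7a11 and Snhg1 were added after values were seen. The members, lists and tests were chosen with earlier results of these data known. The fragment step was the most common FPKM times exonic kb between 0.02 and 0.06 for genes with 1 transcript over 3 kb, a window that bounds the depths it can find. The code that counts genes past the fold rules was tested on simulated data with known changes. Alternatives were other pseudocounts, filters, scalings and thresholds. Python 3.11.15, numpy 2.4.6 and pandas 2.3.3 were used.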

Additional observations from a re-analysis of the deposited data

How the results depend on the processing

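No paired analysis was possible because each group has 1 library, and for the same reason no library could be left out. Of 185 recomputed differences of single members, 183 kept their sign and their side of the 2-fold rule. The exceptions were both of Slc38a2, whose difference of 0.07 turned to -0.00926 with the median of all genes set to 0 and to -0.00555 with equal upper quartiles. The members' median of 0.09 was -0.00737 with no filter, 0.158 with a mean of at least 5 FPKM, 0.00995 with the median of all genes set to 0, 0.0272 as TPM, 0.0140 with equal upper quartiles and 0.0183 as a mean, so its sign is not settled. The count at least 2-fold lower went from 1 to 0 with a mean of at least 5 FPKM, which removes Slc43a2, and to 0 at 3-fold. The count at least 1.5-fold higher was 2, with Slc1a4 added, at pseudocounts of 0.1 and 0.01. An alternative chosen after seeing the data left out the 7 measured members that share exonic bases with another gene. Slc43a2, Slc7a7 and Slc6a6 are among them, so that both counts of lower members became 0 and the median 0.141. The ratio of the members' sums, 1.10 in FPKM, was 1.05 as TPM, where 26 members were measured, and 1.04 with equal upper quartiles. It was again 1.10 in the per-library tables, which hold the same values.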
